A study of Homo sapiens with 27 samples.

Results

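Etoposide-induced senescence was compared with proliferation in the RNA of IMR90 cells, a strain of diploid fibroblasts from human fetal lung. The comparison used 5 of the 27 libraries of the series, chosen by their titles: 3 RNA-seq libraries of etoposide-induced senescent cells and 2 of cycling cells that had received no thapsigargin. Genes annotated as protein coding were analysed, 19320 of the 60534 gene identifiers. The series asked how senescent cells translate their mRNA and respond to stress, and paired RNA-seq with ribosome profiling, in which the mRNA fragments held inside ribosomes are sequenced (footprints).

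The labels give all cells as wild type, and cells grew in high-glucose DMEM with 10% fetal bovine serum and non-essential amino acids. Senescent cells had been given etoposide at 50 µM in 3 treatments within 10 days and were harvested on day 10. Cycling cells were untreated and were harvested at a confluency of 40 to 60%. Besides these, 3 libraries of cells irradiated with 15 Gy and left for 10 days and 3 libraries of cells made quiescent by contact inhibition were used for comparison. Another 2 libraries of cycling cells given 25 nM thapsigargin for 3 h entered the fit only to help estimate the spread. Their titles say RNA-seq, but 1 of their labels names protected fragments, and 1.35 and 1.40% of their reads were unmapped against 27.8 to 40.6% in the other RNA libraries. A fit without them called 5153 genes where the reported fit called 4585. Nothing in the labels says that replicates came from separate cultures, so p-values measure only the spread between these libraries, which may be technical.

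Etoposide traps topoisomerase II on DNA after it has cut both strands, and the breaks that remain activate ATM and p53. Cells with lasting damage can leave the cell cycle for good. p21, encoded by CDKN1A, and p16, encoded by CDKN2A, then hold RB in its active form, and the E2F and DREAM targets that drive replication and mitosis are turned down. Senescent fibroblasts are known for loss of lamin B1, for enlarged lysosomes and for the senescence-associated secretory phenotype, a mixture of chemokines, cytokines, proteases and growth factors whose transcription depends largely on NF-kappaB and C/EBP-beta.

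The 5 libraries held from 20635503 to 41351402 reads counted in genes. Cycling replicate 2 stood apart from the others. In it 33.4% of reads mapped to several places, against 13.2% in cycling replicate 1 and 13.3 to 17.9% in the etoposide libraries, and 10.7% of stranded counts fell on the opposite strand, against 5.88% and 6.34 to 6.44%. Markers fitted the fibroblast label. The 10 fibroblast markers summed to 10263 and 14665 counts per 1000000 (CPM, with TMM-scaled library sizes) in the cycling libraries and to between 9592 and 10806 in the etoposide libraries. The 8 leukocyte markers summed to at most 0.437 and 1.91 CPM in any library of each group, with CD3E, CD68 and ITGAM at 0 in the cycling libraries. The 6 endothelial markers went from 18.1 and 24.4 to between 57.2 and 89.9 CPM, nearly all of it TEK, while PECAM1, CDH5 and CLDN5 were at 0 in the cycling libraries. The 8 epithelial markers went from 17.3 and 24.9 to at most 3.71 CPM, most of it KRT19. The part of other cell types in the results was not tested. In bulk RNA, fewer cells of a type and less RNA per cell cannot be told apart.

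Etoposide-treated cells differed from cycling cells across a large part of the transcriptome. Of 13299 protein-coding genes tested, 4585 (34.5%) had an adjusted p under 0.05 in edgeR's quasi-likelihood test and are referred to as called. Of these, 2224 were higher after etoposide (16.7% of genes tested) and 2361 lower (17.8%). Changes of at least 2-fold were made by 1007 genes that rose and 984 that fell, changes of at least 4-fold by 463 and 342, and changes of at least 8-fold by 232 and 154. The median log2 fold change over all genes tested was 0.00, with quartiles of -0.37 and 0.40. Scaling sets this median, so a change of all mRNAs alike could not be seen. Fewer genes were called with either cycling library left out. In those fits 1 library stands for the cycling state and is assumed to vary like the others. Whether this or a difference between the 2 cycling libraries lowered the number was not tested.

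In 4580 of the called genes no etoposide library lay within the range of the cycling libraries. Over all genes tested, all 3 etoposide libraries lay above both cycling libraries in 4418 (33.2%) and below both in 4415 (33.2%). Among the 5 called genes whose libraries overlapped was COL1A1, the main chain of type I collagen. The other 4 were DUSP14, FAM83H, PTGES and ZNF107, which were looked up after their values were seen.

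**Figure D1:**
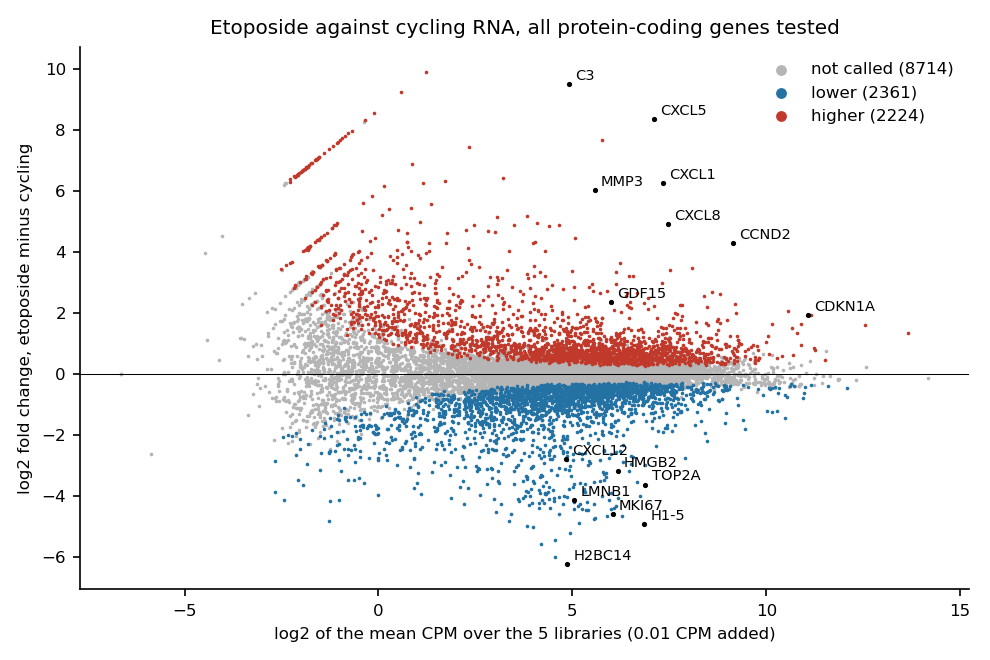
Each point is 1 of 13299 protein-coding genes, with the log2 of its mean CPM over the 5 libraries on the x axis and its log2 fold change (etoposide minus cycling) on the y axis; red points were called higher (2224), blue points lower (2361) and grey points were not called. Chemokine genes and C3 stand at the top and histone genes at the bottom, and the slanted rows at the left are genes with a few counts in 1 group.

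The largest rises among genes with at least 30 counts in the lower group were led by secreted factors. CXCL5 (ENSG00000163735), a chemokine that attracts neutrophils through the receptor CXCR2, stood at 0.109 and 1.45 CPM in the cycling libraries and at 456, 94.6 and 136 CPM in the etoposide libraries. Its log2 fold change was 8.36 ± 1.05 (SE; edgeR adjusted p = 4.42e-05). Every etoposide library was far above both cycling libraries, yet the etoposide libraries also differed from each other by several-fold, with replicate 1 highest. The change was 7.30 and 10.98 without cycling replicate 1 and 2 and 7.37 without etoposide replicate 1. CXCL1 (ENSG00000163739), which uses the same receptor, went from 1.42 and 5.85 to 394, 130.0 and 279 CPM (log2 fold change 6.26 ± 0.69; edgeR adjusted p = 1.29e-05), and the change was 5.51 and 7.55 without cycling replicate 1 and 2. MMP3, stromelysin 1, which digests proteoglycans and activates other metalloproteinases, went from 1.24 and 1.14 to 131, 51.6 and 53.9 CPM, a change of 6.04 ± 0.77. In both, replicate 1 was again the highest of the etoposide libraries, and the cycling libraries lay near the floor.

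The remaining 9 of the 12 largest rises had log2 fold changes between 4.28 and 5.19. They were CXCL8 and CXCL3, the cytokine gene TNFSF15, the metalloproteinase gene ADAMTS19, the phospholipid flippase gene ATP8B4, KYNU of the kynurenine pathway of tryptophan breakdown, SULF2, an enzyme that removes sulfate groups from heparan sulfate outside the cell, the G1 cyclin gene CCND2 and the transporter gene SLC16A6. CCND2 (ENSG00000118971) was the most even of them, at 45.1 and 47.5 CPM in the cycling libraries and 794, 942 and 1001 CPM in the etoposide libraries. Its rise of 4.30 ± 0.15 had the smallest SE of the 12. SLC16A6 likewise went from 1.09 and 1.55 to 25.3, 23.0 and 27.7 CPM with little spread in either group.

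Rises from a lower group with under 30 counts numbered 399, and falls to such a group 58. The lower group was 2 libraries for rises and 3 larger libraries for falls. The same count was thus a lower CPM for falls, and the 2 numbers are not on a like scale. The 5 of these rises with the highest level after etoposide were CXCL6, C3, TNFSF18, RSPO3 and IL13RA2. C3 (ENSG00000125730), the central component of complement, had 3 reads over both cycling libraries and 4922 over the 3 etoposide libraries, which makes its level 769 times as high (95% interval of the counts 263 to 3729). All 3 reads were in cycling replicate 2. Intervals of this kind cover counting error only. CXCL6 (ENSG00000124875), a close relative of CXCL5 in the same gene cluster, stood at 0.182 and 0.776 CPM in the cycling libraries. In the etoposide libraries CXCL6 stood at 207, 25.2 and 39.6 CPM, with etoposide replicate 1 far above the others. Its reads, 20 against 8278, gave a ratio of 194 (125 to 318), and its fitted log2 fold change of 7.68 was 6.19 without etoposide replicate 1, 6.86 without cycling replicate 1 and 8.93 without cycling replicate 2. RSPO3, a secreted protein that strengthens WNT signals, had 8 against 1564 reads. The corresponding 5 falls were small in absolute level, PILRB, GNB3, GLYATL2, MARCHF1 and MYB, each at no more than 2.58 CPM in any cycling library. For MARCHF1 the call was lost without cycling replicate 1, at -1.71 (edgeR adjusted p = 0.120).

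Histone genes held 10 of the 12 largest falls. H2BC14 (ENSG00000273703), an H2B gene, stood at 85.3 and 58.2 CPM in the cycling libraries and at 0.662, 0.971 and 1.13 CPM in the etoposide libraries, a log2 fold change of -6.26 ± 0.28 (SE; edgeR adjusted p = 9.22e-09). H2AC14, an H2A gene, went from 66.5 and 48.4 to 0.871, 0.765 and 1.02 CPM, and H1-5, a linker histone gene, from 325 and 224 to 10.9, 9.30 and 6.81 CPM. All 3 etoposide libraries were close to each other and far below either cycling library for these genes. The other histone genes among the largest falls were H4C9, H3C12, H2BC3, H3C13, H2AC16, H2BC10 and H3C8, with changes from -5.59 to -4.75. The places left were held by TROAP, a spindle protein gene at -5.00 ± 0.27, and SAPCD2, at -4.84 ± 0.31, whose product takes part in spindle orientation. Histone genes resemble each other closely, and reads that mapped to several places were not counted, so the level of a single copy is uncertain.

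Groups of genes with known roles were then described by the number of members called and by their median log2 fold change, beside the 34.5% called and the median of 0.00 over all genes. The 40 groups held 1075 genes tested, of which 521 (48.5%) were called. Counts and medians describe the groups, and no test compared a group with other genes. Other fits are named where they ended the call of a named gene. Many group counts also moved by more than 1.5 times in other fits, mostly downward with a cycling library left out and upward in a fit of the cycling and etoposide libraries alone, and examples in both directions stand beside the counts.

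**Figure D2:**
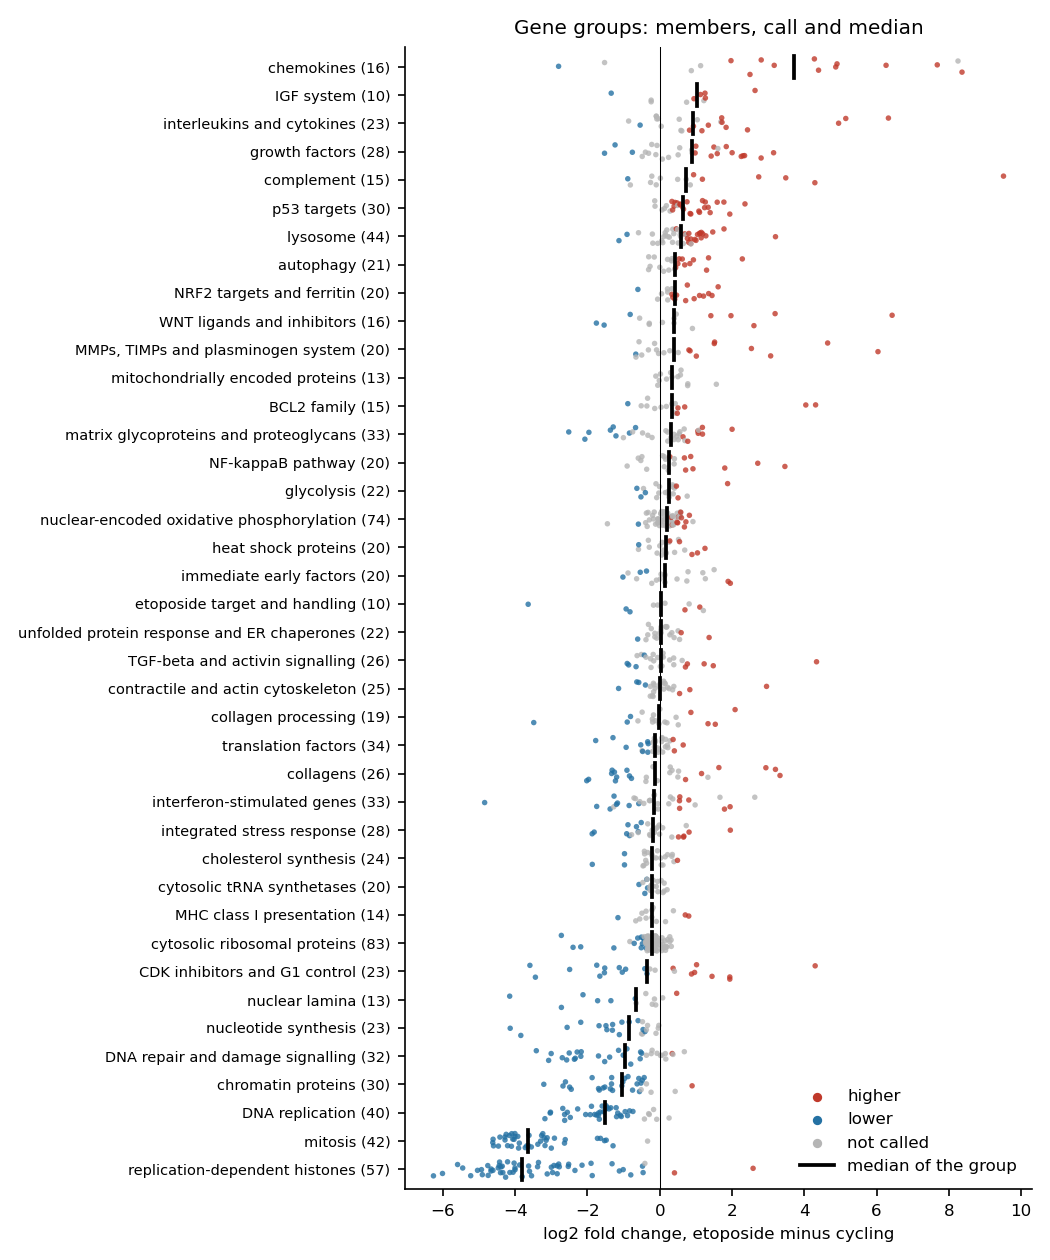
Rows are 40 gene groups with the number of members tested in brackets, ordered by median; each point is a member at its log2 fold change (etoposide minus cycling), red if called higher, blue if called lower and grey if not called, and the black bar is the median of the group. Histones, mitosis and DNA replication lie at the bottom with medians of -3.80, -3.66 and -1.52, and chemokines at the top with 3.72.

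The machinery of cell division was lower throughout. Of 42 mitosis genes tested, 41 fell and none rose, with a median of -3.66. KIF20A, a kinesin needed for cytokinesis, went from 158 and 149 to 7.73, 6.27 and 4.90 CPM, and CENPA, the histone variant that marks centromeres, from 25.8 and 24.3 to 0.906, 1.06 and 1.08 CPM. MKI67 (ENSG00000148773), which encodes the proliferation antigen Ki-67, went from 144 and 166 to 7.77, 6.50 and 4.98 CPM, a change of -4.60 ± 0.48 (edgeR adjusted p = 8.57e-06). In each of these the etoposide libraries lay well below both cycling libraries, and the residual level was above 0. One further listed gene, NUSAP1, had 7 and 6 reads in the groups and did not pass the filter on low counts.

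Genes of DNA replication were lower by a smaller median. Of 40 tested, 34 fell and none rose, with a median of -1.52. MCM10, which helps to start replication forks, went from 25.9 and 22.0 to 2.96, 2.97 and 2.04 CPM, and POLE2, a subunit of DNA polymerase epsilon, from 13.5 and 10.6 to 1.88, 1.56 and 1.02 CPM. Replication-dependent histone genes, which are transcribed mainly in S phase, fell in 54 of 57 members with a median of -3.80. Of 23 genes for nucleotide synthesis, 15 fell and none rose, with a median of -0.84. TK1, thymidine kinase, went from 89.8 and 89.0 to 5.399, 7.53 and 5.73 CPM, a change of -3.84 ± 0.24 (edgeR adjusted p = 6.44e-08).

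H2AC6 (ENSG00000180573) and H4C14 were the replication-dependent histone genes called higher. H2AC6 stood at 204 and 169.8 CPM in the cycling libraries and 261, 261 and 223 CPM in the etoposide libraries, a rise of 0.41 ± 0.13 (edgeR adjusted p = 0.0221). The rise missed the threshold without cycling replicate 2, at 0.28 (adjusted p = 0.232), and without etoposide replicate 1 or 2 (adjusted p of 0.0622 and 0.0724). H4C14 had 10 reads in the cycling libraries against 131 after etoposide, and its call was lost without cycling replicate 1 (2.32; adjusted p = 0.0771).

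Genes for lamina and chromatin proteins that were called were mostly lower, like the cell cycle genes. LMNB1 (ENSG00000113368), which encodes lamin B1, stood at 82.5 and 69.5 CPM in the cycling libraries and at 4.60, 4.32 and 3.93 CPM in the etoposide libraries, a change of -4.15 ± 0.16 (edgeR adjusted p = 3.27e-09). TMPO, which encodes the lamina-associated LAP2 proteins, went from 208 and 180.0 to 38.01, 28.2 and 22.3 CPM. Of 13 lamina genes, 6 fell and 1, TOR1AIP1, rose, a call lost without cycling replicate 1, cycling replicate 2, etoposide replicate 1 or etoposide replicate 3 (changes of 0.40, 0.54, 0.43 and 0.46). Among 30 chromatin protein genes 25 fell and 1 rose, with a median of -1.03. HMGB2 (ENSG00000164104), a DNA-bending protein, went from 160.1 and 149 to 19.3, 16.6 and 14.3 CPM and its relative HMGB1 from 503 and 472 to 176, 138 and 146 CPM, changes of -3.21 ± 0.16 and -1.67 ± 0.17. EZH2, the methyltransferase of Polycomb repressive complex PRC2, fell by 2.68. The chromatin gene that rose was H2AJ, an H2A variant, from 32.7 and 28.8 to 55.8, 62.5 and 53.5 CPM, by 0.90 ± 0.16 (edgeR adjusted p = 0.000810).

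Both targets of etoposide had less mRNA. TOP2A (ENSG00000131747), topoisomerase II alpha of dividing cells, went from 274 and 253 to 25.0, 20.8 and 17.6 CPM, and TOP2B (ENSG00000077097), the beta form that resting cells also carry, from 243 and 239 to 140.1, 112 and 128 CPM. Their changes were -3.64 ± 0.21 and -0.93 ± 0.13 (edgeR adjusted p = 3.62e-08 and 8.16e-05). TDP2, which removes trapped topoisomerase II from DNA ends, stood at 39.2 and 47.4 CPM in the cycling and 61.1, 64.5 and 84.9 CPM in the etoposide libraries, a rise of 0.70 ± 0.16. It missed the threshold without cycling replicate 1, at 0.56 (adjusted p = 0.0747). Among 32 genes of DNA repair and damage signalling, 21 fell and 1, TP53BP1, rose, a call lost without cycling replicate 1, etoposide replicate 2 or etoposide replicate 3 (0.25, 0.36 and 0.30). The median of this group was -0.96. BLM, the helicase mutated in Bloom syndrome, and FANCD2 of the Fanconi pathway fell most, by 3.41 and 3.07 on the log2 scale.

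Inhibitors of cyclin-dependent kinases (CDKs) went separate ways. CDKN1A (ENSG00000124762) stood at 773 and 822 CPM in the cycling libraries and at 2856, 3174 and 3142 CPM in the etoposide libraries, a rise of 1.94 ± 0.16 (edgeR adjusted p = 8.38e-07). CDKN2B (ENSG00000147883), which encodes p15, went from 42.9 and 40.5 to 81.1, 79.3 and 93.2 CPM, a rise of 1.02 ± 0.14 (edgeR adjusted p = 6.88e-05). CDKN2C, which encodes p18, fell from 30.8 and 31.3 to 3.27, 2.77 and 2.56 CPM. CDKN2A (ENSG00000147889) was at 14.1 and 14.4 CPM against 16.7, 19.5 and 20.5 CPM and was not called, at 0.41 ± 0.22 (edgeR adjusted p = 0.171). It was called in a fit of the cycling and etoposide libraries alone (0.40; adjusted p = 0.0416) and with reads of both strands counted (0.63; adjusted p = 0.0443). CDKN2A encodes both p16 and ARF, which counts per gene do not separate.

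Within the whole group of 23 CDK inhibitor and G1 control genes, 8 rose and 12 fell. The D-type cyclin genes CCND1 and CCND2 were among those that rose. CCND1 went from 894 and 780.0 to 2968, 3430.1 and 3229.7 CPM, a change of 1.94 ± 0.15 (edgeR adjusted p = 5.45e-07). E2F8, a repressor within the E2F family that is made in S phase, fell by 3.59.

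**Figure D3:**
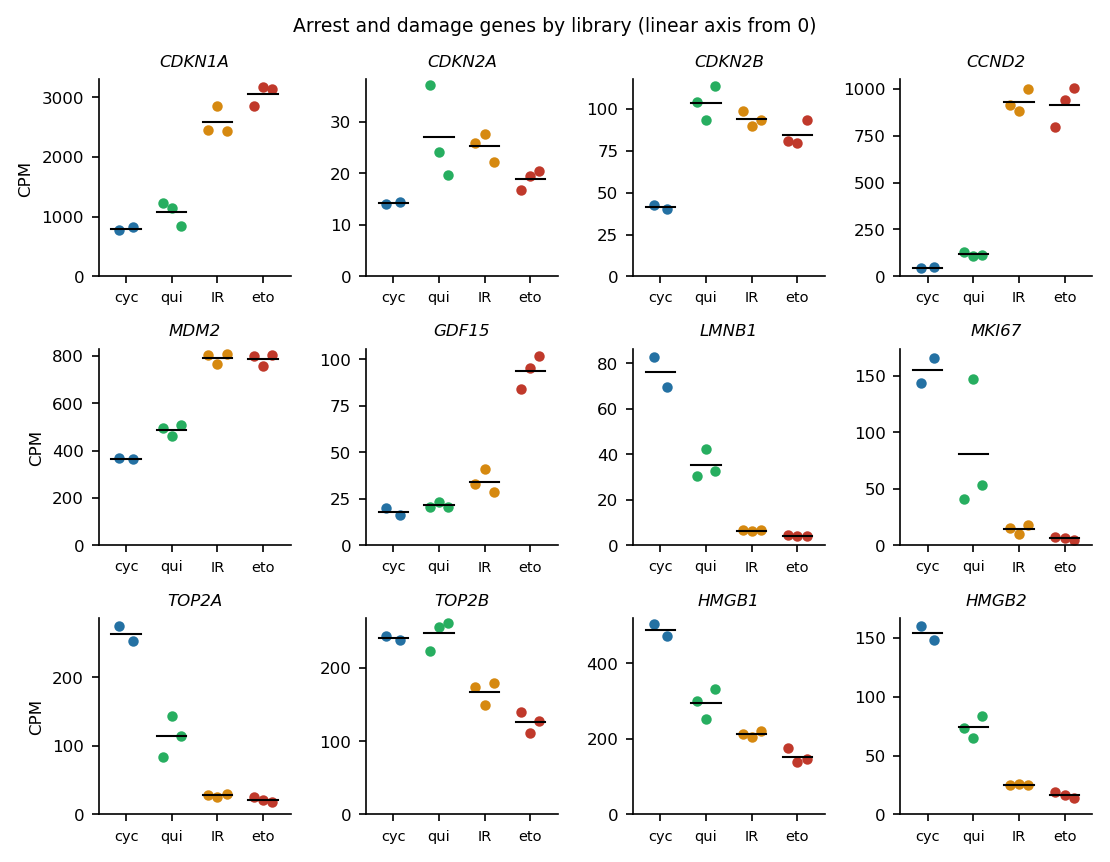
CPM of 12 arrest and damage genes by library on linear axes that start at 0, for cycling (cyc, 2 libraries), quiescent (qui, 3), irradiated (IR, 3) and etoposide-treated (eto, 3) cells; points are libraries and bars are means. CDKN1A and CCND2 are high in both senescent states, LMNB1 and MKI67 are low in both, and CDKN2A in the etoposide libraries lies only just above the cycling libraries.

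Targets of p53 rose together. Of 30 targets tested 23 rose and none fell, with a median of 0.64. GDF15 (ENSG00000130513), a stress-induced secreted factor, went from 20.2 and 16.2 to 83.8, 95.5 and 101 CPM, a rise of 2.36 ± 0.17 (edgeR adjusted p = 2.90e-07). MDM2 (ENSG00000135679), which marks p53 for degradation, went from 369 and 363 to 798, 755 and 801 CPM, a rise of 1.10 ± 0.11 (edgeR adjusted p = 6.84e-06). 

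In the BCL2 family, which controls mitochondrial cell death, 5 of 15 genes rose and 1 fell, and 2 rose in fits without cycling replicate 1 or without cycling replicate 2. The fall was lost with any 1 of the 5 libraries left out and with a replicate block. BCL2A1, a survival gene driven by NF-kappaB, had 6 reads in the cycling libraries and 264 after etoposide, a ratio of CPM of 20.6 (9.35 to 56.7).

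The chemokines gave the highest median of the 40 groups, 3.72, or 3.65 with CCL11, which had no read in the cycling libraries, set at a bound of 3 reads. Of 16 tested, 11 rose and 1 fell. CXCL8 (ENSG00000169429), interleukin 8, stood at 3.17 and 16.6 CPM in the cycling libraries and 437, 152 and 278 CPM in the etoposide libraries, a rise of 4.91 ± 0.76 (edgeR adjusted p = 0.000250). CXCL3 went from 0.400 and 2.59 to 49.1, 18.3 and 55.6 CPM. Without cycling replicate 1 and 2, CXCL8 changed by 4.12 and 6.51 and CXCL3 by 3.98 and 6.66. In CXCL1, CXCL3, CXCL5, CXCL6 and CXCL8 alike, cycling replicate 2 was higher than cycling replicate 1, and etoposide replicate 2 was the lowest of its group. Without cycling replicate 1, 8 chemokine genes rose. CXCL12, which holds stem cells and lymphocytes in their niches, was the chemokine that fell, from 51.7 and 66.4 to 10.8, 7.38 and 7.37 CPM, by 2.80 (edgeR adjusted p = 6.11e-07). Because CXCL1, CXCL2 and CXCL3, and likewise CXCL5 and CXCL6, are close copies, reads that fit several of them were left out and the level of each is uncertain.

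Start regions of genes from the chemokine and mitosis groups are shown to place known motifs beside their changes. Only genes listed in the source of start regions were eligible. Each window spans 250 bases before and 50 bases after the gene's start in RefSeq (GRCh38.p14), 5′ to 3′ on the gene's strand. For the 3 genes of the chemokine group with the largest fitted rise, capitals mark matches on either strand to GGANTTTCC, a letter pattern of NF-kappaB binding sites in which N is any base. CXCL5 lies at chr4:73998628-73998927 (minus strand), CXCL6 at chr4:73836428-73836727 (plus strand) and CXCL1 at chr4:73869143-73869442 (plus strand), all within 1 cluster on chromosome 4.
CXCL5: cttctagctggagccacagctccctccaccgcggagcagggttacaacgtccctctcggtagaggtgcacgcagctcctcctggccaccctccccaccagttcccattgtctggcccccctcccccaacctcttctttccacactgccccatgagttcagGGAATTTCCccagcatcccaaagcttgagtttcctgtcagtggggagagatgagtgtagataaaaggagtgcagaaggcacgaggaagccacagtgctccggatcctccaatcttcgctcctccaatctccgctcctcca
CXCL6: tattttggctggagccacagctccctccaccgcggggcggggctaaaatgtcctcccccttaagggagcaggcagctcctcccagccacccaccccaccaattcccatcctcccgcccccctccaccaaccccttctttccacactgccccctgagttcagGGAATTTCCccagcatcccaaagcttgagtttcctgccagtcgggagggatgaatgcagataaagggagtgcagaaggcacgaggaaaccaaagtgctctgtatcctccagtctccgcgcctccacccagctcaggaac
CXCL1: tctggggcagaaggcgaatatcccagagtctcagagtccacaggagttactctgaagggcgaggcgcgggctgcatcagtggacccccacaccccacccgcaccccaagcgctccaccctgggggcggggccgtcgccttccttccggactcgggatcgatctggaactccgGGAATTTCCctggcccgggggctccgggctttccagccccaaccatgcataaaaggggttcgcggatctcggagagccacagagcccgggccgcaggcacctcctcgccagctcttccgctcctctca
The 3 windows hold the same 9 letters, GGAATTTCC, starting 90, 89 and 78 bases before the start of CXCL5, CXCL6 and CXCL1.

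For the 3 genes of the mitosis group with the largest fall, capitals mark TTTGAA, the core of the cell cycle homology region bound by the MuvB part of DREAM, and CCAAT, the box bound by NF-Y, on either strand (as ATTGG where it is on the other one). CENPA lies at chr2:26785806-26786105 (plus strand), KIF20A at chr5:138178862-138179161 (plus strand) and MKI67 at chr10:128126374-128126673 (minus strand).
CENPA: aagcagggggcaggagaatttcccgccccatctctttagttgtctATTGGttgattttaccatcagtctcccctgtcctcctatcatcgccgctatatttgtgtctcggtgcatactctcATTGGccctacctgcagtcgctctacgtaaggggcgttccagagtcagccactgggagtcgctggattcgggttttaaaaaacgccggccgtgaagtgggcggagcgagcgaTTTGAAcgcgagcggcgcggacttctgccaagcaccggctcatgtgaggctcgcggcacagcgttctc
KIF20A: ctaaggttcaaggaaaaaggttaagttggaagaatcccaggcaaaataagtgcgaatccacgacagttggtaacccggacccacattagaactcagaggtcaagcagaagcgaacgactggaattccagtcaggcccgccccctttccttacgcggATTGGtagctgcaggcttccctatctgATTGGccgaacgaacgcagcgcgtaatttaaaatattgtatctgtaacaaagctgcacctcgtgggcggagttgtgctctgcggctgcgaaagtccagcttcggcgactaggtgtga
MKI67: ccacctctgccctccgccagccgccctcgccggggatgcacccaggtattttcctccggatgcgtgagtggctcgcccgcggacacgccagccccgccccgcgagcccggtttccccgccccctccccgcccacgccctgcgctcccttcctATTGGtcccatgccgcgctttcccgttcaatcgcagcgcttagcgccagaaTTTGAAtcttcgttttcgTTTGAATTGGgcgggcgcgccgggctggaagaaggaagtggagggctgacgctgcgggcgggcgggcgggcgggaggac
CENPA holds 1 TTTGAA and 2 CCAAT boxes and KIF20A holds 2 CCAAT boxes and no TTTGAA. MKI67 holds 2 of each, the second TTTGAA overlapping a CCAAT box.

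Over whole groups, the pattern GGANTTTCC occurred in the windows of 7 of 12 chemokine genes that had one, against 1.64% of all 27305 windows. TTTGAA occurred in 22 of 34 mitosis windows and in none of 34 replication windows, against 15.4% of all. TTTNGCGC, a letter pattern of E2F sites, occurred in 1 mitosis window and in 14 replication windows, against 1.83% of all. CCAAT occurred in 22 mitosis, 20 replication and 44 of 52 histone windows, against 35.7% of all. It was also in 14 of 25 windows of p53 targets and 8 of 14 of interleukins and cytokines. TATAAA occurred in 34 histone windows, against 11.9%. The group windows are of genes tested, and over all 10820 windows of genes tested the shares were partly different. They were 1.59% for GGANTTTCC, 10% for TTTGAA, 2.985% for TTTNGCGC, 36.65% for CCAAT and 5.92% for TATAAA. Among all genes called lower, 14.1% of windows held TTTGAA and 5.27% held TTTNGCGC, against 9.10% and 2.69% of genes not called. GGANTTTCC was in 1.89% of windows of genes called higher and 1.56% of those not called. These are matches of letters and not sites shown to be bound.

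Among 23 interleukin and cytokine genes 11 rose and 1 fell, with 7 that rose and none that fell without cycling replicate 1. IL6 (ENSG00000136244) stood at 9.07 and 9.21 CPM in the cycling libraries and 55.4, 33.0 and 59.3 CPM in the etoposide libraries, a rise of 2.43 ± 0.31 (edgeR adjusted p = 4.78e-05). IL1B went from 2.29 and 5.49 to 12.4, 7.68 and 17.6 CPM, a rise of 1.72 ± 0.37 (edgeR adjusted p = 0.00302) that was lost without cycling replicate 1 (1.19; adjusted p = 0.0549). IL1A, often placed upstream of IL6 and CXCL8 in senescent cells, was at 2.48 and 2.79 CPM against 3.34, 1.65 and 2.50 CPM and was not called (-0.08 ± 0.41; edgeR adjusted p = 0.901). Its libraries overlapped. IL33, an alarmin kept in the nucleus, had 3 reads in the cycling libraries and 524 after etoposide, a ratio of CPM of 81.8 (27.8 to 398). IL13RA2, a decoy receptor for interleukin 13, had 18 against 1310 reads.

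Proteases and their inhibitors changed in part. Of 20 genes for metalloproteinases, their inhibitors and the plasminogen system 9 rose and 1 fell, with 5 that rose and none that fell with either cycling library left out and 4 that fell in the fit of these groups alone. SERPINB2, an inhibitor of plasminogen activators, went from 0.510 and 0.517 to 13.9, 12.8 and 12.2 CPM, a rise of 4.65 ± 0.32 (edgeR adjusted p = 1.38e-07). It had 24 reads in the cycling libraries and 1286 after etoposide, a ratio of CPM of 25.1 (16.8 to 39.3). In the insulin-like growth factor system 5 of 10 genes rose and 1 fell, with 1 that rose without cycling replicate 1 and 2 without replicate 2. IGFBP2, which binds these growth factors outside the cell, went from 24.5 and 24.3 to 192, 136 and 129 CPM (2.64 ± 0.25; edgeR adjusted p = 3.11e-06), and IGFBP6 fell from 86.4 and 93.8 to 31.98, 38.2 and 36.4 CPM (-1.34 ± 0.17).

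Of 28 growth factor genes 12 rose and 3 fell, 1 of which fell without cycling replicate 1. ANGPTL4, which inhibits lipoprotein lipase, went from 0.619 and 0.828 to 6.76, 6.68 and 5.68 CPM (3.15 ± 0.32; edgeR adjusted p = 7.12e-06), and BMP2, a bone morphogenetic protein, from 0.582 and 0.983 to 7.63, 4.32 and 4.20 CPM (2.81 ± 0.41). GREM1, an inhibitor of BMPs, fell from 1745 and 2048 to 697, 788 and 931 CPM (-1.24 ± 0.21; edgeR adjusted p = 0.000448). Of 15 complement genes 6 rose and 1 fell, and 2 rose without cycling replicate 1. Besides C3 these included C7, of the membrane attack complex, with 9 reads in the cycling libraries and 383 after etoposide. C5 fell from 12.9 and 12.1 to 8.50, 6.001 and 5.86 CPM.

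**Figure D4:**
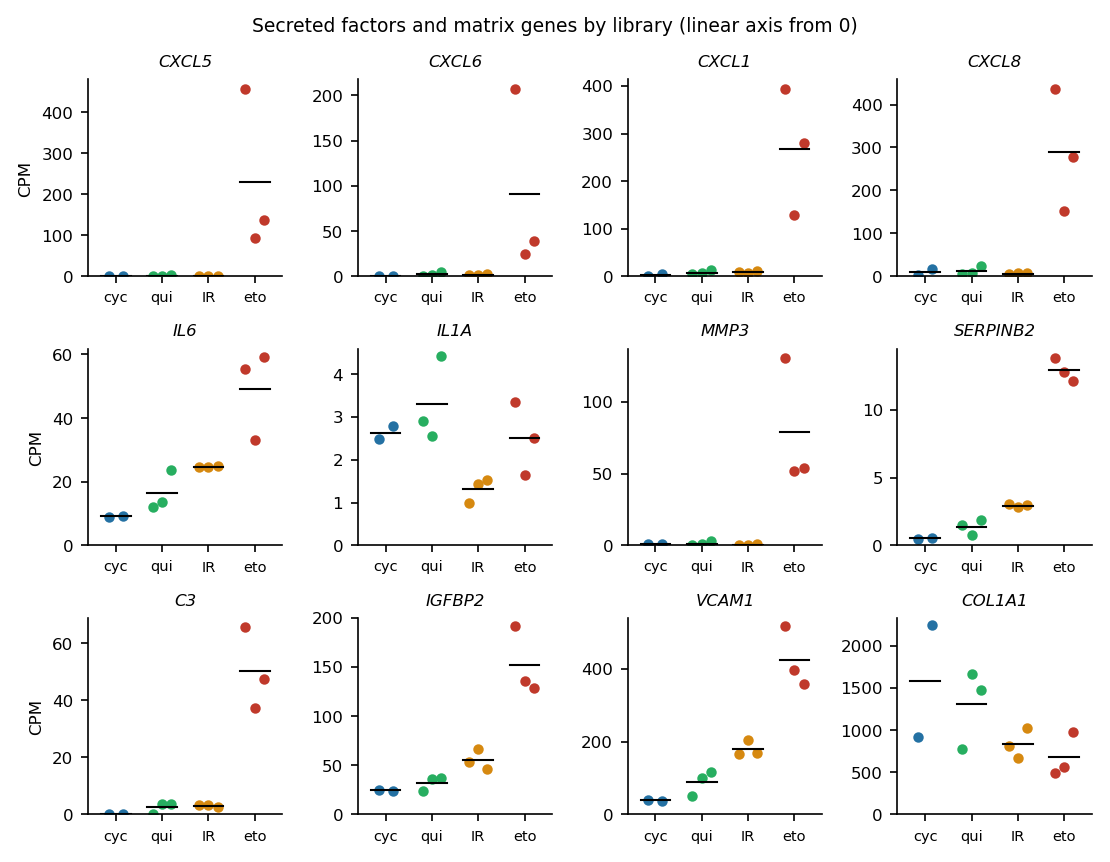
CPM of 12 secreted factor and matrix genes by library on linear axes that start at 0, for cycling (cyc, 2 libraries), quiescent (qui, 3), irradiated (IR, 3) and etoposide-treated (eto, 3) cells; points are libraries and bars are means. CXCL5, CXCL6, CXCL1, CXCL8, MMP3 and C3 are high in the etoposide libraries and low in the other 3 states, with a wide spread between the etoposide libraries, while IL1A overlaps with the cycling libraries.

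Genes of the NF-kappaB pathway rose in part. Of 20 tested 8 rose and none fell, with a median of 0.26, and 5 and 4 rose without cycling replicate 1 and 2. VCAM1 (ENSG00000162692), an adhesion molecule for leukocytes, went from 40.7 and 36.1 to 517, 397 and 358 CPM, a rise of 3.46 ± 0.33 (edgeR adjusted p = 3.34e-06). NFKBIZ, an atypical IkappaB that helps to induce secondary response genes, went from 12.1 and 15.3 to 97.4, 67.1 and 104 CPM (2.71 ± 0.24; edgeR adjusted p = 1.58e-06). Of 33 interferon-stimulated genes 6 rose and 8 fell, with 3 that rose with either cycling library left out. OAS3, an antiviral sensor of double-stranded RNA, fell from 11.8 and 13.4 to 2.75, 3.53 and 4.90 CPM (-1.74 ± 0.25; edgeR adjusted p = 0.000146). For antigen presentation by MHC class I, 2 of 14 genes rose and 1 fell, with 1 that rose with either cycling library left out and 6 that fell in the fit of these groups alone. HLA-E went from 119 and 124 to 194, 207 and 196 CPM (0.71 ± 0.12), and NLRC5, an activator of MHC class I transcription, fell from 16.7 and 19.7 to 8.05, 8.74 and 7.72 CPM (-1.16 ± 0.15).

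Signalling groups were mixed. Of 26 TGF-beta and activin genes 5 rose and 4 fell, and of 16 genes for WNT ligands and inhibitors 5 rose and 3 fell. Without cycling replicate 2, 2 TGF-beta genes fell. BAMBI, a decoy receptor that dampens TGF-beta signals, went from 12.2 and 13.8 to 37.9, 36.2 and 34.6 CPM (1.48 ± 0.20; edgeR adjusted p = 8.05e-05), and the inhibitory SMAD6 fell from 9.39 and 10.1 to 5.68, 5.15 and 5.33 CPM (-0.86 ± 0.19). WNT2 fell from 22.4 and 20.9 to 9.96, 6.24 and 6.21 CPM (-1.54 ± 0.22; edgeR adjusted p = 0.000116), against the rise of RSPO3. Among 20 immediate early transcription factor genes 2 rose and 3 fell, with 1 of each without cycling replicate 1, 4 that rose with DESeq2 and 5 that fell in the fit of these groups alone. ATF3, induced by many stresses, went from 7.72 and 6.62 to 31.4, 25.8 and 26.5 CPM (1.95 ± 0.15; edgeR adjusted p = 4.19e-07), and KLF4 fell from 15.8 and 18.0 to 8.15, 6.56 and 10.3 CPM (-1.02 ± 0.20).

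Matrix genes did not move as one. Of 26 collagen genes 6 rose and 10 fell, with 3 that rose with either cycling library left out and 5 that fell without replicate 2. COL14A1, a collagen that sits on the surface of fibrils, went from 13.4 and 18.8 to 168, 118 and 156 CPM (3.20 ± 0.28; edgeR adjusted p = 1.48e-06). COL5A3 fell from 6.30 and 6.83 to 1.60, 1.35 and 1.88 CPM (-2.02 ± 0.40; edgeR adjusted p = 0.00155). COL1A1 stood at 919 and 2248 CPM in the cycling libraries and 494, 562 and 977 CPM in the etoposide libraries, with the highest etoposide library above the lower cycling library. Its call, at -1.22 ± 0.45 (edgeR adjusted p = 0.0489), was lost under RLE scaling, with DESeq2, without a filter on low counts, in a fit of these groups alone, and without cycling replicate 2 or etoposide replicate 1 or 2. These 3 left-out libraries gave changes of -0.44, -1.04 and -1.10 (edgeR adjusted p = 0.581, 0.136 and 0.136).

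Of 19 collagen processing genes 4 rose and 3 fell, and 2 rose with either cycling library left out. PCOLCE, an enhancer of procollagen cleavage, fell from 98.1 and 150.3 to 10.0, 9.59 and 13.6 CPM (-3.48 ± 0.25; edgeR adjusted p = 2.21e-07), and P3H2, a prolyl hydroxylase, rose from 23.2 and 22.3 to 93.5, 117 and 79.3 CPM (2.09 ± 0.19). Of 33 genes for matrix glycoproteins and proteoglycans 7 rose and 8 fell, with 1 that rose without cycling replicate 1, 14 that rose in the fit of these groups alone, 11 that rose without the thapsigargin libraries and 4 that fell without cycling replicate 2. LUM, lumican, went from 66.7 and 77.0 to 345, 261 and 257 CPM (2.00 ± 0.36; edgeR adjusted p = 0.000879). HAS2, the main hyaluronan synthase of fibroblasts, fell from 51.0 and 33.2 to 8.67, 7.83 and 5.65 CPM (-2.52 ± 0.25; edgeR adjusted p = 5.98e-06), and BGN, biglycan, from 36.2 and 63.9 to 9.72, 9.86 and 16.0 CPM (-2.07 ± 0.36).

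Contractile and actin genes changed little as a group, with 3 of 25 higher, 4 lower (2 without cycling replicate 2) and a median of 0.00. SYNPO2, an actin-bundling protein, went from 13.03 and 14.6 to 107, 117 and 97.2 CPM (2.96 ± 0.22; edgeR adjusted p = 2.96e-07). ACTA2, smooth muscle actin and a marker of myofibroblasts, was at 752 and 634 CPM against 1005, 1098 and 622 CPM, with overlapping libraries, and was not called (0.39 ± 0.26; edgeR adjusted p = 0.262).

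Lysosomal and autophagy genes rose in part. Of 44 lysosomal genes 19 rose and 2 fell, with a median of 0.58, 12 that rose without cycling replicate 1 and 30 that rose in the fit of these groups alone. CTSK, the collagen-degrading cathepsin K, went from 18.1 and 17.5 to 90.2, 45.2 and 48.3 CPM (1.78 ± 0.32; edgeR adjusted p = 0.000817), and CTSS, cathepsin S, from 0.582 and 0.931 to 10.4, 4.82 and 5.38 CPM (3.20 ± 0.47). GLB1 (ENSG00000170266), whose beta-galactosidase gives the senescence stain, was at 60.1 and 63.0 CPM in the cycling libraries and 75.3, 77.6 and 69.2 CPM in the etoposide libraries. Its difference, 0.27 ± 0.15, was not called (edgeR adjusted p = 0.178), although all 3 etoposide libraries lay above both cycling libraries. GUSB, beta-glucuronidase, fell from 11.9 and 11.95 to 4.63, 6.24 and 5.46 CPM (-1.13 ± 0.21). Of 21 autophagy genes 10 rose and none fell. GABARAPL1, an ATG8 family protein of the autophagosome, went from 168 and 182 to 805, 894 and 862 CPM (2.29 ± 0.13; edgeR adjusted p = 2.78e-08), and SQSTM1, the receptor p62, from 915 and 909 to 2162, 2246 and 2569.5 CPM (1.35 ± 0.16).

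Few genes of ER protein folding were called, and genes of the integrated stress response were called in both directions. Of 22 genes for the unfolded protein response and chaperones of the endoplasmic reticulum (ER) 2 rose and 1 fell (1 and none with either cycling library left out, 5 and 4 in the fit of these groups alone), with a median of 0.04. DNAJB9, an ER co-chaperone, went from 19.9 and 20.7 to 54.6, 51.7 and 50.8 CPM (1.37 ± 0.23; edgeR adjusted p = 0.000469). Of 28 genes of the integrated stress response 5 rose and 8 fell (5 without cycling replicate 1), with a median of -0.18. ATF4 (ENSG00000128272), its central transcription factor, was at 575 and 547 CPM against 495, 429.8 and 464 CPM and was not called (-0.28 ± 0.10; edgeR adjusted p = 0.0541), but was called with DESeq2 (adjusted p = 0.0346) and in the fit of these groups alone (adjusted p = 0.0349). All 3 etoposide libraries lay below both cycling libraries. DDIT3 (ENSG00000175197), which encodes CHOP, went from 41.4 and 39.5 to 68.3, 68.1 and 76.8 CPM (0.81 ± 0.14; edgeR adjusted p = 0.000498).

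In the same group the 2 largest falls were in genes of amino acid supply. PHGDH, the first enzyme of serine synthesis, fell from 148 and 148 to 30.6, 41.5 and 54.3 CPM (-1.81 ± 0.26; edgeR adjusted p = 0.000139), and SLC7A5, an importer of large neutral amino acids, from 110.0 and 142 to 29.3, 32.7 and 41.3 CPM (-1.87 ± 0.23). Of 20 cytosolic tRNA synthetase genes 4 fell and none rose, with 1 that fell without cycling replicate 1, 2 without replicate 2 and 7 in the fit of these groups alone. MARS1, for methionine, fell from 257 and 251 to 159, 173 and 179.9 CPM (-0.57 ± 0.10; edgeR adjusted p = 0.000859). Of 20 heat shock genes 5 rose and 1 fell, with 3 that rose with either cycling library left out. HSPB8, a small heat shock protein, went from 24.8 and 25.8 to 47.2, 56.2 and 52.9 CPM (1.04 ± 0.13), and HSPD1, the mitochondrial chaperonin, fell from 480.0 and 440.4 to 294, 299.7 and 329.6 CPM (-0.58 ± 0.10).

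Antioxidant genes driven by NRF2, with the ferritins, rose in 13 of 20 members and fell in 1, with 5 that rose without cycling replicate 1. FTH1, ferritin heavy chain, was at 2508 and 2837 CPM in the cycling libraries and 4900.0, 8105 and 11581 CPM in the etoposide libraries. The etoposide libraries differed widely from each other, and the rise of 1.62 ± 0.38 (edgeR adjusted p = 0.00528) was lost without cycling replicate 1 (1.53; adjusted p = 0.0607).

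Metabolic groups had few calls in the fit over all libraries. Of 24 cholesterol synthesis genes 1, IDI1, rose and 3 fell, against 9 that fell in the fit of these groups alone. The rise of IDI1, at 0.49, was lost with any 1 library of the comparison left out (0.44 to 0.53) and with reads of both strands counted. INSIG1, which holds back the transcription factor SREBP, fell from 269.7 and 251 to 70.5, 74.6 and 69.5 CPM (-1.87 ± 0.12; edgeR adjusted p = 1.03e-07). Of 22 glycolysis genes 3 rose and 3 fell, with 1 that rose without cycling replicate 2, 7 without etoposide replicate 1 and 8 with DESeq2. HK2, hexokinase 2, went from 16.6 and 15.9 to 45.1, 61.1 and 73.1 CPM (1.88 ± 0.24; edgeR adjusted p = 5.67e-05), and PFKP, the platelet form of phosphofructokinase, fell from 213 and 198 to 129.8, 136 and 132 CPM (-0.63 ± 0.12). Of 74 nuclear genes for oxidative phosphorylation 10 rose and 1 fell, with 3 that rose with either cycling library left out and 26 in the fit of these groups alone. NDUFV3, a subunit of complex I, went from 82.0 and 77.7 to 127, 138 and 131 CPM (0.72 ± 0.10; edgeR adjusted p = 0.000137). None of the 13 mitochondrially encoded genes was called by edgeR, with a median of 0.34. At an unadjusted p under 0.05 there was 1 such gene, and DESeq2 called 0. Other edgeR fits called 2 as higher with these groups alone, 1 without the thapsigargin libraries and 1 with a replicate block.

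Among 83 cytosolic ribosomal protein genes 12 fell and none rose, with a median of -0.22. The number that fell was 4 and 5 without cycling replicate 1 and 2, and 35 in the fit of these groups alone. The largest falls, RPS10 and RPL36A, rest on levels of at most 1.53 and 3.16 CPM in any library of either group. Both genes share their sequence with an annotated readthrough gene, RPS10-NUDT3 and RPL36A-HNRNPH2, and reads that overlap several genes were not counted. Their values, and those of EIF4A1 (shared with SENP3-EIF4A1, at most 5.35 CPM), are uncertain for that reason. IMPDH2, at most 0.510 CPM in any of these libraries, was called lower, but with reads of both strands counted its change was 0.71 and not called, and without cycling replicate 1 it was -3.71 and not called. Of 34 translation factor genes 3 rose and 8 fell, with 1 that rose in either case and 5 and 4 that fell without cycling replicate 1 and 2. EIF4EBP1, an inhibitor of cap-dependent translation, fell from 163 and 149 to 59.1, 64.4 and 67.5 CPM (-1.29 ± 0.13; edgeR adjusted p = 8.63e-06), and its relative EIF4EBP2 went from 185 and 187 to 283, 306 and 287 CPM (0.65 ± 0.13; edgeR adjusted p = 0.00218).

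Since irradiated cells are senescent by another route and quiescent cells are arrested without damage, the etoposide libraries were also tested directly against the irradiated and the quiescent libraries. These tests share the etoposide libraries with the comparison above. Against irradiated cells 3005 genes (22.6%) differed, 1714 higher after etoposide (12.9%) and 1291 lower (9.71%). Against quiescent cells 5561 genes (41.8%) differed, 2810 higher (21.1%) and 2751 lower (20.7%). Without etoposide replicate 2 the first count fell to 1847.

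Chemokine genes were higher after etoposide than in either of the other arrested states. Of 16 tested, 11 were higher than in irradiated cells and none lower, and 12 were higher than in quiescent cells and 1 lower. CXCL5 stood at 1.63, 1.95 and 2.00 CPM in the irradiated libraries and 0.485, 1.09 and 3.18 CPM in the quiescent libraries, so that the etoposide libraries were higher by 6.94 and 7.19 on the log2 scale (edgeR adjusted p = 0.000107 and 1.53e-05). MMP3 stood at 0.492, 0.507 and 0.824 CPM and 0.149, 0.791 and 3.06 CPM in the same states. C3 was at 3.37, 3.43 and 2.47 CPM after irradiation and 0.187, 3.73 and 3.50 CPM in quiescence. IL6 was intermediate after irradiation, at 24.6, 24.6 and 24.8 CPM, and etoposide was higher by 1.00 (edgeR adjusted p = 0.0110). GDF15 was at 34.2 ± 6.16 CPM (SD, n = 3) after irradiation, and etoposide was higher by 1.45 (edgeR adjusted p = 6.03e-05). Whole groups also differed from irradiated cells. The median difference was 1.16 over 22 ER chaperone and unfolded protein response genes and 0.84 over 44 lysosomal genes. Over 25 contractile and actin genes it was -0.18. Whether IL6 or GDF15 differed by more than such groups was not tested.

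More cell cycle genes differed from quiescent than from irradiated cells. Of 42 mitosis genes 40 were lower than in quiescent cells and 14 lower than in irradiated cells, with medians of -2.35 and -0.56. LMNB1 was at 6.69, 6.24 and 6.67 CPM in the irradiated and 30.7, 42.1 and 32.5 CPM in the quiescent libraries, so that etoposide minus the other state gave -0.61 and -3.04 (edgeR adjusted p = 0.00953 and 4.16e-08). CCND2 was at 911, 884 and 996 CPM after irradiation, a difference of -0.03 that was not called (edgeR adjusted p = 0.885). CDKN1A differed from irradiated cells by 0.25 (not called; adjusted p = 0.205) and from quiescent cells by 1.51 (adjusted p = 2.68e-06). CDKN2A stood at 37.0, 24.1 and 19.6 CPM in the quiescent libraries, the lowest of which lay within the range of the etoposide libraries, and the difference of -0.51 was just past the threshold (edgeR adjusted p = 0.0482), with quiescent replicate 1 the highest.

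Some groups with few calls against cycling cells, and the lysosomal and collagen processing genes, differed from these states. Others differed little from irradiated cells. Of 74 nuclear genes for oxidative phosphorylation 0 were higher and 0 lower, and of 22 glycolysis genes 3 were higher and 1 lower. In these 2 groups 23 and 8 genes were higher than in quiescent cells, and 0 and 3 lower. Against irradiated cells 21 of 22 ER chaperone and unfolded protein response genes, 33 of 44 lysosomal genes, 14 of 19 collagen processing genes, 13 of 24 cholesterol genes and 7 of 13 mitochondrially encoded genes were higher, with medians of 1.16, 0.84, 0.87, 0.53 and 1.82. Against quiescent cells the numbers were 17, 35, 10, 9 and 11. In the same order, 0, 0, 1, 0 and 0 genes were lower than in irradiated cells. Against quiescent cells 0, 3, 1, 2 and 0 were lower. The mitochondrially encoded mRNAs summed to 3315 and 4407 CPM in the cycling, 3479, 5063 and 5018 CPM in the etoposide, 1674, 1018 and 1167 CPM in the irradiated and 389, 1724 and 1514 CPM in the quiescent libraries. All irradiated and quiescent libraries thus lay below all cycling and etoposide libraries in this sum. In the ER chaperone group the sums were 4023 and 4067 CPM in the cycling libraries, 3904 to 4283 CPM after etoposide, 1904 to 2009 CPM after irradiation and 1581 to 3169.9 CPM in quiescence. All cells were lysed in polysome buffer before RNA was taken, and the part of RNA recovery from that lysate in these differences was not tested.

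Ribosome footprints of etoposide and cycling cells, from 3 libraries each, gave a second readout of the same states. Which RNA and footprint libraries shared a lysate was not settled, so the readouts may not be independent. Of 11777 genes tested in footprints 3996 (33.9%) were called, 1931 higher (16.4%) and 2065 lower (17.5%). Of the 1902 genes that rose in RNA and were tested in footprints, 1333 (70.1%) were also called higher there, 2 were called lower and 567 were not called. Among 2237 that fell in RNA, 1513 (67.6%) were called lower in footprints and none higher. In the reverse direction, 69.4% of genes called higher in footprints and tested in RNA were called higher in RNA, and 73.4% of those called lower were called lower. CXCL5 changed by 7.76 in footprints, C3 by 9.16, CCND2 by 4.09 and LMNB1 by -4.21, all called. CDKN2A, not called in RNA, was called in footprints, at 1.06 (edgeR adjusted p = 0.0103). The genes called in opposite directions were H2AC6, at -1.13 in footprints (edgeR adjusted p = 3.69e-05), and SYNGR1, at 0.74 in RNA and -0.75 in footprints (adjusted p = 0.0364 and 0.0208), the latter looked up after its values were seen. Whether RNA and footprint changes of a gene differ was not tested here.

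**Figure D5:**
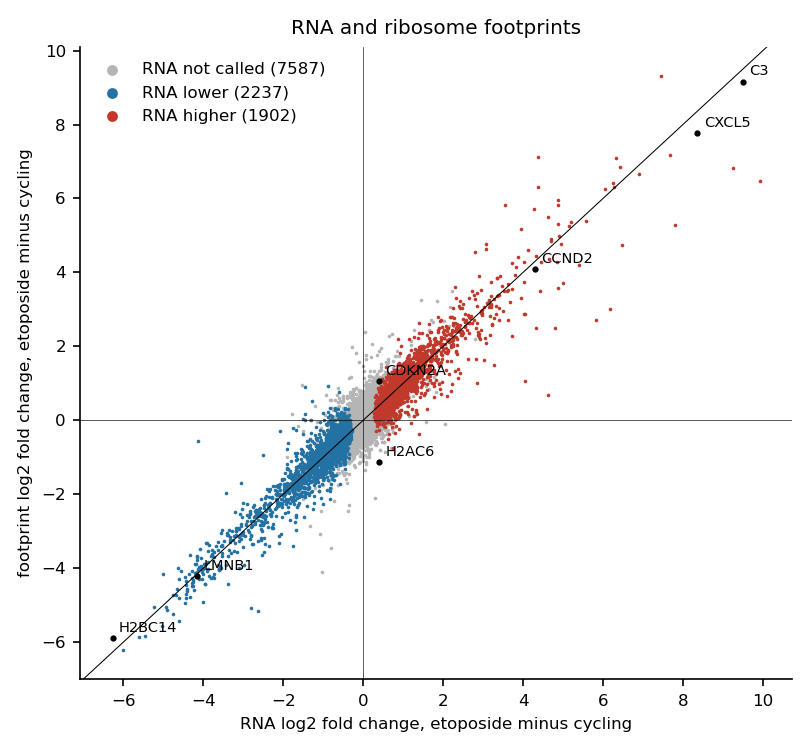
Each point is 1 of 11726 genes tested in both assays, with its RNA log2 fold change on the x axis and its footprint log2 fold change on the y axis (both etoposide minus cycling); colours give the RNA call, higher in red, lower in blue and not called in grey, and the diagonal marks equal change. Genes with large RNA changes lie near the diagonal, and H2AC6 lies below it.

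Long non-coding RNAs were fitted apart from the protein-coding genes. Of 1308 tested, 401 (30.7%) were called in etoposide against cycling cells.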

How the data were processed

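RNA-seq and ribosome profiling libraries were made from IMR90 lysates in polysome buffer, the RNA after removal of ribosomal RNA and with a stranded kit, per the labels' protocols. The deposited values are raw read counts per gene and strand. STAR 2.7.10b, hg38, bcl2fastq and DESeq2 1.36.0 are named in the submitters' processing notes, and the gene annotation is not given in the sources used here. Reverse-strand counts were used for RNA and forward-strand counts for footprints. Summary lines without a gene entered no test. In the 5 RNA libraries unmapped reads made up 27.8 to 32.1% of reads and reads overlapping several genes 10.7 to 12.8% of uniquely mapped reads. Gene symbols and protein-coding status came from reference tables, with 60461 of 60534 identifiers given a symbol.

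Protein-coding genes were filtered with filterByExpr, scaled by TMM and fitted with edgeR 4.0.16 (R 4.3.3) by the robust quasi-likelihood test, two-sided, over all 13 RNA libraries in 5 states. P-values were adjusted by Benjamini-Hochberg over all genes tested. Footprints were fitted likewise over 14 libraries, and long non-coding RNAs with the scaling of the protein-coding fit. The fits were tested on simulated data. CPM were computed with TMM-scaled library sizes, are not per length, and do not compare levels between genes. Errors of log2 fold changes are standard errors. Protein-coding genes with under 30 counts in the lower group are in most cases given by counts, with 3 counts as the floor for a group at 0. Long non-coding RNAs are given by fitted changes whatever their counts.

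The genes named were the 12 largest rises and falls without overlap, the 5 highest low-count rises and falls, up to 2 in each direction per group, and 23 genes chosen by name, of which those unstable or of unsure role were in part left out. The groups of genes and members were chosen with earlier results of these data known. Promoters came from RefSeq (GRCh38.p14). Alternatives were RLE and upper quartile scaling, DESeq2 1.42.0, other filters (none, or 1 CPM in 2 libraries), fits of fewer libraries, both strands, a replicate block and each library left out. The replicate numbers are not stated to pair libraries.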

Additional observations from a re-analysis of the deposited data

Results flagged for a closer look

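Signals above the cycling level appeared in 5 of 29 tested long non-coding RNAs chosen by name, which the protein-coding comparison does not use. Another 14 of the 29 were called lower. PURPL, a p53-induced RNA, stood at 0.0364 and 0.155 CPM in the cycling libraries and 2.79, 1.94 and 1.94 CPM in the etoposide libraries, a log2 fold change of 4.61 ± 0.66 (SE; edgeR adjusted p = 4.78e-06). LINC-PINT, another p53-induced RNA, went from 20.9 and 15.9 to 80.0, 76.5 and 61.8 CPM, a rise of 1.98 ± 0.18 (edgeR adjusted p = 3.94e-09). TP53TG1 went from 18.5 and 22.4 to 34.0, 35.0 and 36.3 CPM, a rise of 0.78 ± 0.15 (edgeR adjusted p = 0.000225). For these 3, every etoposide library lay above both cycling libraries. Not every listed RNA linked to p53 rose, and MIR34AHG was not called (-0.31 ± 0.26; edgeR adjusted p = 0.396).

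SNHG15, a host gene of small nucleolar RNA, went from 10.6 and 8.33 to 15.6, 14.03 and 12.7 CPM, a rise of 0.57 ± 0.18 (edgeR adjusted p = 0.0167) that was lost without cycling replicate 2 (0.41; adjusted p = 0.233) and without etoposide replicate 1 (0.49; adjusted p = 0.0684). GAS5, a further host gene that builds up in arrested cells, went from 214 and 195 to 298, 279 and 269 CPM. Its rise of 0.46 ± 0.13 (edgeR adjusted p = 0.00951) was lost without cycling replicate 2 (0.40). Host genes of this kind did not all rise. SNHG1 fell (-0.94 ± 0.13; edgeR adjusted p = 4.78e-06), and SNHG5 was not called (-0.21 ± 0.18; edgeR adjusted p = 0.392).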

How the results depend on the processing

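Leaving out 1 library at a time gave between 2600 and 3985 called genes, between 1100 and 1912 higher and between 1500 and 2073 lower, lowest without cycling replicate 1. Differences from irradiated cells then numbered 1847 to 2754, and long non-coding RNAs called 193 to 312. No gene called both in the reported fit and in another fit had the opposite sign there. RLE scaling gave 4621 calls, upper quartile scaling 4570, DESeq2 5054, no filter 4394, 1 CPM in 2 libraries 4424, both strands 4472, a fit without the thapsigargin libraries 5153 and a fit of the groups compared 6067. IMPDH2 turned from lower to 0.71 with reads of both strands counted; the cause was not tested. Over the named genes, 120 of the values kept their direction but lost the call, 4 gained it and 2188 kept both.

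With the replicate block, 4386 genes were called. The labels state no pairing, and same-numbered cycling and etoposide libraries did not deviate together (Pearson r = -0.0061 across 13299 genes, which are not independent). With 1 cycling library left, that library is assumed to vary like the other states, and losses there say nothing about the size of a change.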

Other observations

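Long non-coding RNAs chosen by name were called lower more often than higher. Of 1308 tested, 249 were called higher and 152 lower by edgeR, with a median log2 fold change of 0.26. Among 29 listed RNAs that could be tested, 5 rose and 14 fell, with a median of -0.49. The 14 include RMRP, which is annotated as the RNA of RNase MRP and not as a long non-coding RNA. MIR17HG, host of the miR-17-92 cluster that E2F and MYC induce, went from 1.38 and 0.828 to 0.0697, 0.0294 and 0.0269 CPM (-4.65 ± 0.84; edgeR adjusted p = 8.81e-05). MIR155HG went from 5.13 and 4.04 to 0.209, 0.294 and 0.269 CPM (-4.13 ± 0.38; edgeR adjusted p = 2.44e-09). DLEU2, host of miR-15a and miR-16-1, went from 9.83 and 9.99 to 0.975, 0.971 and 0.753 CPM (-3.46 ± 0.30; edgeR adjusted p = 1.35e-09).

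Some well-known RNAs were not called. The nuclear RNA MALAT1 stood at 684 and 795 CPM in the cycling and 178, 390.0 and 359 CPM in the etoposide libraries (-1.26 ± 0.50; edgeR adjusted p = 0.0915), with no overlap between the groups. NEAT1, the scaffold of paraspeckles, was at 34.9 and 44.4 CPM against 28.6, 41.1 and 35.2 CPM, with overlapping libraries (-0.18 ± 0.30; edgeR adjusted p = 0.676). How fully MALAT1 and NEAT1 were recovered from the lysates in polysome buffer was not tested. CDKN2B-AS1, the antisense RNA ANRIL at the CDKN2A and CDKN2B locus, fell from 2.95 and 3.26 to 1.25, 1.38 and 1.37 CPM (-1.21 ± 0.26; edgeR adjusted p = 0.000774), while CDKN2B on the other strand rose. Long non-coding RNAs that overlap another gene on the same strand lose the reads that fall on both.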
